A study of Homo sapiens with 12 samples.

Results

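The response to temozolomide of U87 cells that carried siRNA against BCL3 was measured by comparing 3 arrays of cells given 100 µM temozolomide (TMZ) for 24 h with 3 arrays of cells given its solvent DMSO, 6 of the 12 arrays of the study. U87 is an established human glioma cell line, grown here in serum-containing medium, and all 6 samples had been transfected with the BCL3 siRNA. The other 6 arrays, 3 with TMZ and 3 with DMSO, came from U87 cells transfected with a control siRNA; they entered the estimate of the spread and are set beside the BCL3 siRNA arrays where stated. Each sample was hybridised to an Illumina bead array with 47320 probes. Of these, 14270 probes carried a single gene symbol and were detected (detection p under 0.01) on at least 3 of the 12 arrays, and the brightest such probe of each gene gave 10686 genes. The labels do not say whether replicates were separate cultures, so the p-values here rest on the spread among arrays, which could be technical only.

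TMZ is an oral alkylating drug used against glioblastoma that methylates DNA bases, mainly guanine. A minor form of methylated guanine, left unrepaired, mispairs at replication, and mismatch repair turns the mispair into strand breaks that activate the checkpoint kinases and p53. The transcription factor p53 then raises genes for cell cycle arrest, repair and death. U87 is known to lack the CDKN2A and CDKN2B genes. BCL3 is an atypical I-kappa-B protein that binds NF-kB dimers in the nucleus and changes which of their targets are transcribed.

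Mean raw intensity was 241.8, 283 and 276.3 on the TMZ arrays, against 255.8, 229.6 and 258 on the DMSO arrays, so the groups overlapped. Between 16412 and 17174 probes were detected on TMZ arrays and between 16439 and 16532 on DMSO arrays. Over the 6 arrays the first principal component held 30.8% of the variance. It placed TMZ replicates 1 to 3 at 7.89, 2.29 and 9.27, against -9.52, -6.62 and -3.31 for DMSO replicates 1 to 3. Of 14 glioma and U87 markers on the array, 9 were detected on all 6 arrays, among them VIM, CD44 and TNC. The summed linear level of the 14 ran from 57955 to 59053 on TMZ arrays and from 59130 to 62075 on DMSO arrays, so it was lower on every TMZ array. GFAP and S100B were detected on none, nor were CDKN2A and CDKN2B, by any of their 3 probes each. FN1 was detected on 0 TMZ and 2 DMSO arrays. The summed linear level of 11 leukocyte markers ran from 2241 to 2437 on TMZ arrays and from 2158 to 2228 on DMSO arrays. That of 11 neuron and oligodendrocyte markers ran from 384 to 433 on TMZ arrays and from 382 to 399 on DMSO arrays, and that of 10 epithelial and endothelial markers from 194 to 211 on TMZ arrays and from 205 to 215 on DMSO arrays. The leukocyte sum was higher on every TMZ array, and CD68 was by far its brightest member. Mean normalised log2 intensity of CD68 was 10.91 on TMZ arrays and 10.8 on DMSO arrays. LYZ and CD74 went the other way, at 4.97 against 5.21 and 7.66 against 7.71, so the sum mostly follows CD68. CD68, LYZ and CD74 of the leukocyte markers and SNAP25 of the neuron markers were detected on all 6 arrays, EPCAM of the epithelial markers on 2 TMZ and 3 DMSO arrays, and CD14 and AIF1 each on 3 TMZ arrays and 1 DMSO array. MAP2 was detected on 2 TMZ and 0 DMSO arrays and OLIG2 on 1 TMZ and 2 DMSO arrays. The other markers of these 3 lists, PTPRC, MOG, CDH1 and PECAM1 among them, were detected on none. The part that markers play in the results was not tested. With log2 mean raw intensity as a covariate the counts given below, 64 rises and 49 falls, became 49 and 29. Fewer cells of a kind and less RNA per cell cannot be told apart in bulk RNA.

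BCL3 itself checked the siRNA label. Its normalised log2 intensity, called its level from here on, was 6.57, 6.53 and 6.54 with BCL3 siRNA and TMZ, and 6.41, 6.28 and 6.46 with BCL3 siRNA and DMSO. With control siRNA it was 7.26, 7.28 and 7.36 under TMZ, and 7.47, 7.38 and 7.25 under DMSO. All 6 BCL3 siRNA arrays thus lay below all 6 control siRNA arrays. The difference between siRNAs was -0.76 ± 0.07 (limma SE) under TMZ and -0.98 ± 0.07 under DMSO. Within the BCL3 siRNA arrays, TMZ and DMSO differed by 0.16 ± 0.07 in BCL3, with an adjusted p of 0.297.

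In cells with BCL3 siRNA, TMZ raised 64 genes and lowered 49 at a Benjamini-Hochberg adjusted p under 0.05. That is 1.06% of the 10686 genes tested, with 0.599% risen and 0.459% fallen. Listed targets of p53 made up 19 of the rises, and listed genes of hypoxia and glycolysis 13 of the falls. The changes were small, with a median size of 0.41 on the log2 scale among genes that passed, against 0.08 over all genes. Among them 14 rises and 3 falls reached 1.5-fold, and 1 rise reached 2-fold. With arrays scaled by the median of all their probes the counts were 90 rises and 3 falls. Scaled by the median of the detected probes alone, they were 46 and 46. Without 1 array they were as low as 33 and 20: rises moved by over 1.5 times without TMZ replicate 1 or 3 or DMSO replicate 1 or 2, and falls without any of those, DMSO replicate 3 or control siRNA TMZ replicate 2. In all 113 genes the 3 TMZ arrays and the 3 DMSO arrays did not overlap, which was so for 19.5% of all genes. Fold changes were computed after an offset of 16 was added to each intensity, which understates the change of dim probes.

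**Figure D1:**
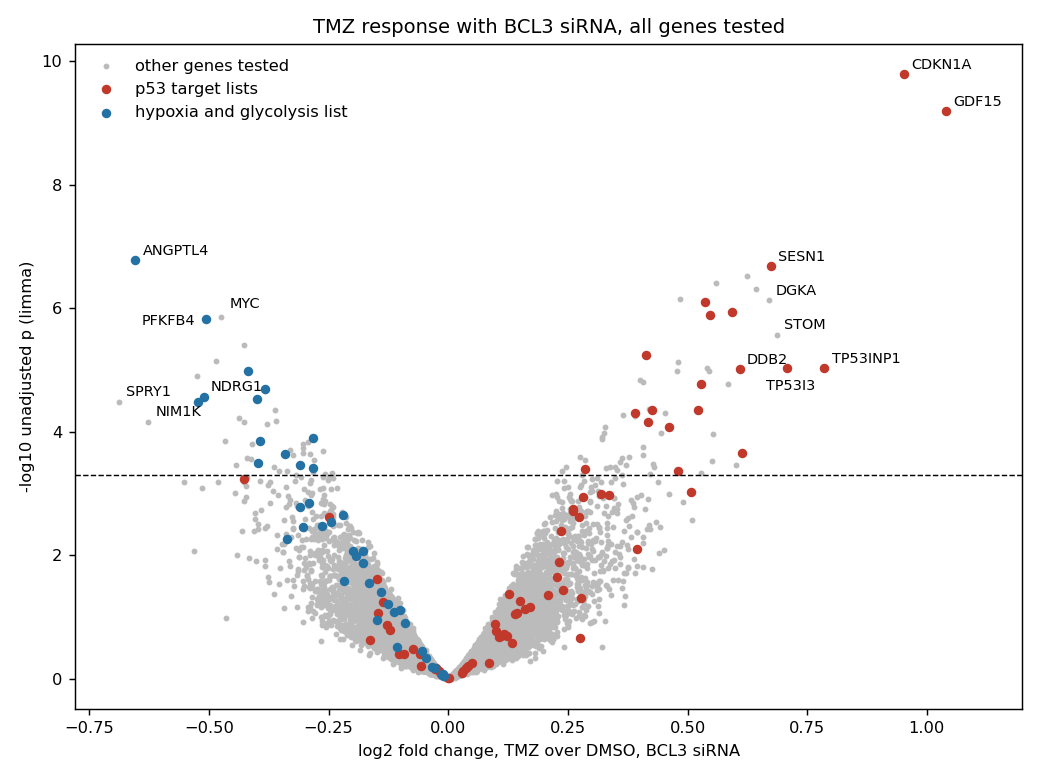
Each point is 1 of the genes tested in cells with BCL3 siRNA. The horizontal axis gives the log2 fold change of TMZ over DMSO and the vertical axis -log10 of the unadjusted limma p, and genes above the dashed line had an adjusted p under 0.05. Red points (p53 target lists) hold CDKN1A and GDF15 at the upper right, and blue points (hypoxia and glycolysis list) all lie left of 0. Of these 40, 10 moved to its right when arrays were scaled by the median of all probes, and 0 when scaled by that of the detected probes.

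The 2 strongest rises were GDF15, a secreted stress cytokine, and CDKN1A, the p21 inhibitor of cyclin-dependent kinases. GDF15 had levels of 7.17, 7.13 and 7.15 on TMZ arrays, against 6.12, 6.01 and 6.21 on DMSO arrays. CDKN1A had levels of 12.40, 12.39 and 12.35 on TMZ arrays, against 11.38, 11.42 and 11.48 on DMSO arrays. In both genes every TMZ array lay well above every DMSO array, and the gap was many times the spread within either group. GDF15 rose by 1.04 ± 0.06 (SE), or 2.06-fold, with an adjusted p of 3.45e-06. CDKN1A rose by 0.95 ± 0.05, or 1.94-fold, with an adjusted p of 1.72e-06.

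Targets of p53 were described in 4 lists that hold 89 genes between them, of which 72 were measured. Of the 72, 19 rose and 0 fell, against 0.599% and 0.459% of all genes. These and the lists below were written with earlier results of these data known, so such shares are a description and not a test. They made up 29.7% of all genes that rose. Positive differences were seen for 54 of the 72, with a median of 0.16 over the 72 and 0.00 over all genes. When 1 array was left out in turn, between 14 and 19 of them rose.

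Arrest and feedback targets held the largest share, 9 risen of 23 measured. SESN1, a sestrin that restrains mTORC1, had levels of 7.67, 7.58 and 7.73 on TMZ arrays, against 6.88, 7.02 and 7.06 on DMSO arrays. TP53INP1, a p53-induced protein linked to autophagy, had levels of 7.10, 7.33 and 7.00 on TMZ arrays, against 6.48, 6.49 and 6.11 on DMSO arrays. TP53I3, a quinone oxidoreductase-like enzyme, had levels of 7.06, 6.80 and 6.89 on TMZ arrays, against 6.15, 6.46 and 6.02 on DMSO arrays. The groups were apart in all 3 genes, with wider spread in TP53INP1 and TP53I3, where DMSO replicates 3 and 2 lay apart from the other DMSO arrays. The rise was 0.67 ± 0.07 for SESN1 (adjusted p = 0.000557), 0.79 ± 0.11 for TP53INP1 (0.00432) and 0.71 ± 0.10 for TP53I3 (0.00432). PPM1D, a phosphatase that switches off p53, had levels of 7.18, 7.07 and 7.24 on TMZ arrays, against 6.68, 6.67 and 6.56 on DMSO arrays. PLXNB2, a semaphorin receptor, SPATA18, a protein of mitochondrial quality control, and PHLDA3, an inhibitor of AKT, rose by 0.55, 0.59 and 0.42. MDM2, the ubiquitin ligase that degrades p53, had levels of 5.30, 5.37 and 5.09 on TMZ arrays, against 4.89, 4.81 and 4.54 on DMSO arrays. Its probe was dim and was detected on 3 TMZ and 2 DMSO arrays. Its arrays did not overlap and differed by 0.51 ± 0.12, but its adjusted p of 0.0631 missed the threshold. CCNG1 and GADD45A also missed it, with differences of 0.32 and 0.26. The lowest member was GADD45B, at -0.43 with an adjusted p of 0.0506.

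Of 8 repair and nucleotide supply targets, 3 rose. DDB2, which recognises damaged bases in nucleotide excision repair, had levels of 6.79, 6.76 and 7.09 on TMZ arrays, against 6.31, 6.24 and 6.26 on DMSO arrays. XPC, its partner in damage recognition, had levels of 8.60, 8.76 and 8.61 on TMZ arrays, against 8.24, 8.23 and 8.24 on DMSO arrays. RRM2B, the p53-inducible small subunit of ribonucleotide reductase, had levels of 6.53, 6.89 and 6.52 on TMZ arrays, against 6.28, 5.93 and 5.89 on DMSO arrays. The groups were apart in each gene, and RRM2B had the widest spread. DDB2 rose by 0.61 ± 0.09 (adjusted p = 0.00432), XPC by 0.42 ± 0.07 (0.0146) and RRM2B by 0.61 ± 0.12 (0.0331). RRM2B did not pass without TMZ replicate 1 or 2 or DMSO replicate 2 or 3, with an adjusted p of up to 0.104, and its second probe gave 0.34 (0.254). XPC did not pass without TMZ replicate 2 or DMSO replicate 1 or 2, with an adjusted p of up to 0.0658. PCNA, the sliding clamp of replication, differed by 0.26 with an adjusted p of 0.0836.

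Among death receptor and apoptosis targets, 3 of 16 rose. FAS, a receptor that triggers the extrinsic death pathway, had levels of 5.61, 5.62 and 5.67 on TMZ arrays, against 4.96, 5.26 and 5.28 on DMSO arrays. Its groups did not overlap, and DMSO replicate 1 lay below the other DMSO arrays. FAS rose by 0.46 ± 0.08 (adjusted p = 0.0166), TNFRSF14, the herpesvirus entry mediator, by 0.52 ± 0.09 (0.0115), and CYFIP2, a subunit of the WAVE actin regulator, by 0.41 ± 0.06 (0.00364). FAS did not pass without TMZ replicate 1 (0.0538) or TMZ replicate 3 (0.0672), nor TNFRSF14 without DMSO replicate 1 (0.0534). The mitochondrial death genes did not pass, with differences of 0.28 for BAX, 0.24 for PMAIP1 (NOXA) and -0.09 for BBC3 (PUMA). TNFRSF10B, the receptor for TRAIL, differed by 0.10 with an adjusted p of 0.516.

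Of 30 stress, metabolism and secretion targets, 7 rose. Besides GDF15, SESN1 and TP53INP1 these were TRIM22, ANKRA2, HSPA4L and NTPCR. TRIM22, an antiviral ubiquitin ligase, had levels of 7.55, 7.69 and 7.63 on TMZ arrays, against 7.14, 7.10 and 7.02 on DMSO arrays. All TMZ arrays were higher, by 0.54 ± 0.06 on average, with an adjusted p of 0.000832. The rises of ANKRA2 (0.48, adjusted p = 0.0445) and NTPCR (0.28, adjusted p = 0.0424) did not pass in 10 of 12 fits that left out 1 array, with adjusted p up to 0.14 for ANKRA2 and 0.153 for NTPCR. HSPA4L rose by 0.39 (adjusted p = 0.0121) and did not pass without TMZ replicate 1 or 3 or DMSO replicate 2 (up to 0.0629). TIGAR and SOD2 differed by 0.23 and -0.25 and did not pass.

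**Figure D2:**
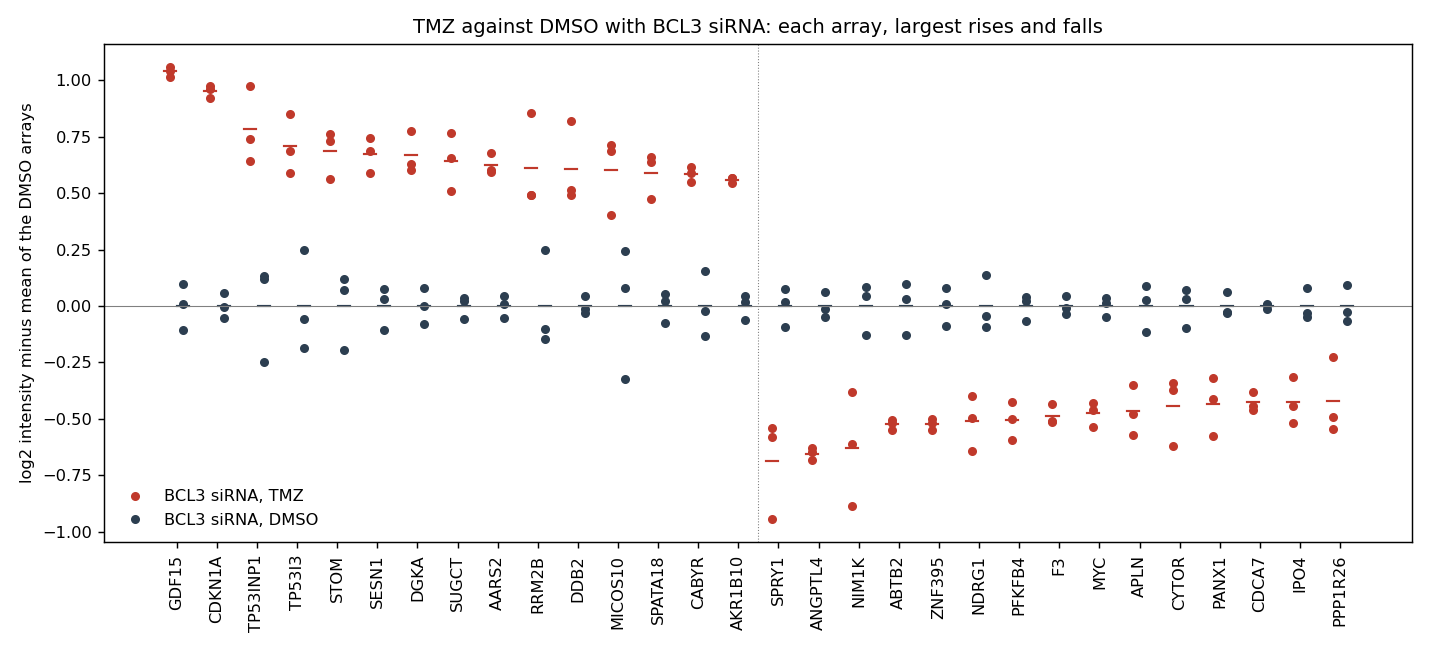
Each point is 1 array with BCL3 siRNA, for the 15 largest rises and the 15 largest falls among named genes that passed. The vertical axis gives the log2 intensity minus the mean of the 3 DMSO arrays of that gene, with TMZ in red at the left, DMSO in dark blue at the right and a bar at each mean of 3 arrays. The genes were picked among those without overlap, so by that choice no red point overlaps the dark points of its gene. The gap is widest for GDF15 and CDKN1A.

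Of 40 genes of hypoxia and glycolysis measured, 13 fell and 0 rose, against 0.459% and 0.599% of all genes. This list too was written with earlier results of these data known, so its shares and signs are a description and not a test. They were 26.5% of all falls. All 40 differences were negative, with a median of -0.22 over the list and 0.00 over all genes. When arrays were scaled by the median of all 47320 probes instead of quantile-normalised, the median of all genes moved to 0.13. The 49 falls became 3, rises made up 96.8% of calls against 56.6%, and 1 member of the list fell. Under that scaling 30 of the 40 members were negative and 39 lay below the median of all genes. With the median taken over the kept (detected) probes, a setting added after the data were seen, all 40 were negative and 13 fell. Leaving out 1 array in turn gave between 7 and 12 falls in the list. The count fell to 8 or fewer without TMZ replicate 1 or DMSO replicate 1 or 2.

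Cells short of oxygen stabilise hypoxia-inducible factors, which bind the letters ACGTG near genes for glucose uptake, glycolysis and blood vessel growth, and many tumour lines use part of this programme in culture. The 250 bases before the start of 35 list members, from RefSeq (GRCh38.p14), were searched for ACGTG on both strands. On the strand shown a match on the other strand reads CACGT. The letters stood before 6 of 11 members that fell, 54.5%, before 13 of 24 that did not pass, 54.2%, and before 24.2% of the 8684 tested genes with an entry. The share was thus alike in members that fell and those that did not pass. Among all genes that fell it was 10 of 41, 24.4%, near that of all tested genes. The p53 decamer half-site, searched on both strands in the same windows, stood before 0 of 15 p53 targets that rose and before 4.64% of tested genes, and its core CATG before 26.7% and 37%, which says nothing of p53 sites outside these windows. Of the members that fell, 4 are shown because they hold the letters and differ in size of change, each in its gene's direction with the matches in capitals. ANGPTL4 is at chr19:8363905-8364154 (+), ANKRD37 at chr4:185396591-185396840 (+), ALDOC at chr17:28576896-28577145 (-) and BNIP3 at chr10:131981924-131982173 (-). Where CACGTG stands, the matches of both strands overlap.
ANGPTL4: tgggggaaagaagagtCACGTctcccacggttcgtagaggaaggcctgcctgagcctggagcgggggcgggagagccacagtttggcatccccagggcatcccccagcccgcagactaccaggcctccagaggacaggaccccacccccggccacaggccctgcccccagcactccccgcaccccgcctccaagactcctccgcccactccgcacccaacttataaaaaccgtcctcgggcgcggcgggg
ANKRD37: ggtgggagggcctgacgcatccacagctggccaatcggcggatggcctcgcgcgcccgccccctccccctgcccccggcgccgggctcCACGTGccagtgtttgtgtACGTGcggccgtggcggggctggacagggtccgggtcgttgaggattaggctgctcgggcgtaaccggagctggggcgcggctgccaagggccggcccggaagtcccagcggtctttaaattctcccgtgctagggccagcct
ALDOC: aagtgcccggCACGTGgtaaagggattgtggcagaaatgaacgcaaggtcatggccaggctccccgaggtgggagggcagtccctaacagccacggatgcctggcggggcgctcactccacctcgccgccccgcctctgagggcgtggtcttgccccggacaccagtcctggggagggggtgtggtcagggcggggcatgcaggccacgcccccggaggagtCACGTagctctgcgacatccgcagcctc
BNIP3: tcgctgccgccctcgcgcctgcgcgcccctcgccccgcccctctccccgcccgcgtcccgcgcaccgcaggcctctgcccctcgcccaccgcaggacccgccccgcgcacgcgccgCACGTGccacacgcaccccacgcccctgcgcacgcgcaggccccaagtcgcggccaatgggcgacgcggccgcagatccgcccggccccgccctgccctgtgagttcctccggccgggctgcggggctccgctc
These are matches of letters and show no binding.

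The largest fall in the list was that of ANGPTL4. ANGPTL4, a secreted inhibitor of lipoprotein lipase, had levels of 8.21, 8.25 and 8.27 on TMZ arrays, against 8.85, 8.96 and 8.88 on DMSO arrays. NDRG1, a stress protein induced by low oxygen, had levels of 10.05, 10.15 and 9.90 on TMZ arrays, against 10.68, 10.45 and 10.50 on DMSO arrays. ANKRD37, a small ankyrin-repeat protein, had levels of 6.04, 6.01 and 6.05 on TMZ arrays, against 6.45, 6.50 and 6.41 on DMSO arrays. All 3 genes were lower on every TMZ array, and ANGPTL4 and ANKRD37 varied little within a group. ANGPTL4 fell by 0.65 ± 0.06, or 1.57-fold, with an adjusted p of 0.000557, though its other 2 probes gave -0.14 and -0.23 and did not pass. NDRG1 fell by 0.51 ± 0.08 (0.00854), ANKRD37 by 0.42 ± 0.06 (0.00432) and ZNF395, a hypoxia-induced zinc finger protein, by 0.52 ± 0.08 (0.00913). ADM, the vessel-dilating peptide adrenomedullin, fell by 0.34 (0.0337), INSIG2, which holds back sterol synthesis, by 0.39 (0.0245), and BNIP3, a mitophagy receptor, by 0.28 (0.0414). BNIP3 did not pass in 10 of 12 fits that left out 1 array (up to 0.128), ADM in 6 (up to 0.123) and INSIG2 in 4, those without TMZ replicate 2 or 3 or DMSO replicate 1 or 2 (up to 0.0973). VEGFA, the main vessel growth factor, differed by -0.34 with an adjusted p of 0.135.

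The glycolysis members that fell were a glucose transporter, a hexokinase, an aldolase and 3 genes linked to phosphofructokinase. SLC2A1, the glucose transporter GLUT1, had levels of 9.78, 9.68 and 9.67 on TMZ arrays, against 10.12, 10.06 and 10.10 on DMSO arrays. PFKFB4, an enzyme that sets the level of an activator of phosphofructokinase, had levels of 9.64, 9.81 and 9.73 on TMZ arrays, against 10.26, 10.28 and 10.17 on DMSO arrays. PFKFB3, its relative, had levels of 9.58, 9.80 and 9.61 on TMZ arrays, against 10.11, 10.02 and 10.05 on DMSO arrays. The groups were apart in all 3 genes. SLC2A1 fell by 0.38 ± 0.06 (0.00684), PFKFB4 by 0.51 ± 0.06 (0.00115) and PFKFB3 by 0.40 ± 0.06 (0.00887). PFKP, the platelet form of phosphofructokinase, fell by 0.28 (0.0227), ALDOC, an aldolase, by 0.31 (0.0412), and HK2, a hexokinase, by 0.40 (0.0404). PFKP did not pass without TMZ replicate 1 or 2 or DMSO replicate 1 or 2 (up to 0.0876). ALDOC did not pass in 8 of 12 fits that left out 1 array (up to 0.122) and HK2 in 9 (up to 0.136), and a second HK2 probe gave 0.08. Later steps of the pathway did not pass, with differences of -0.15 for PGK1, -0.05 for ENO1, -0.11 for PKM and -0.03 for LDHA.

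**Figure D3:**
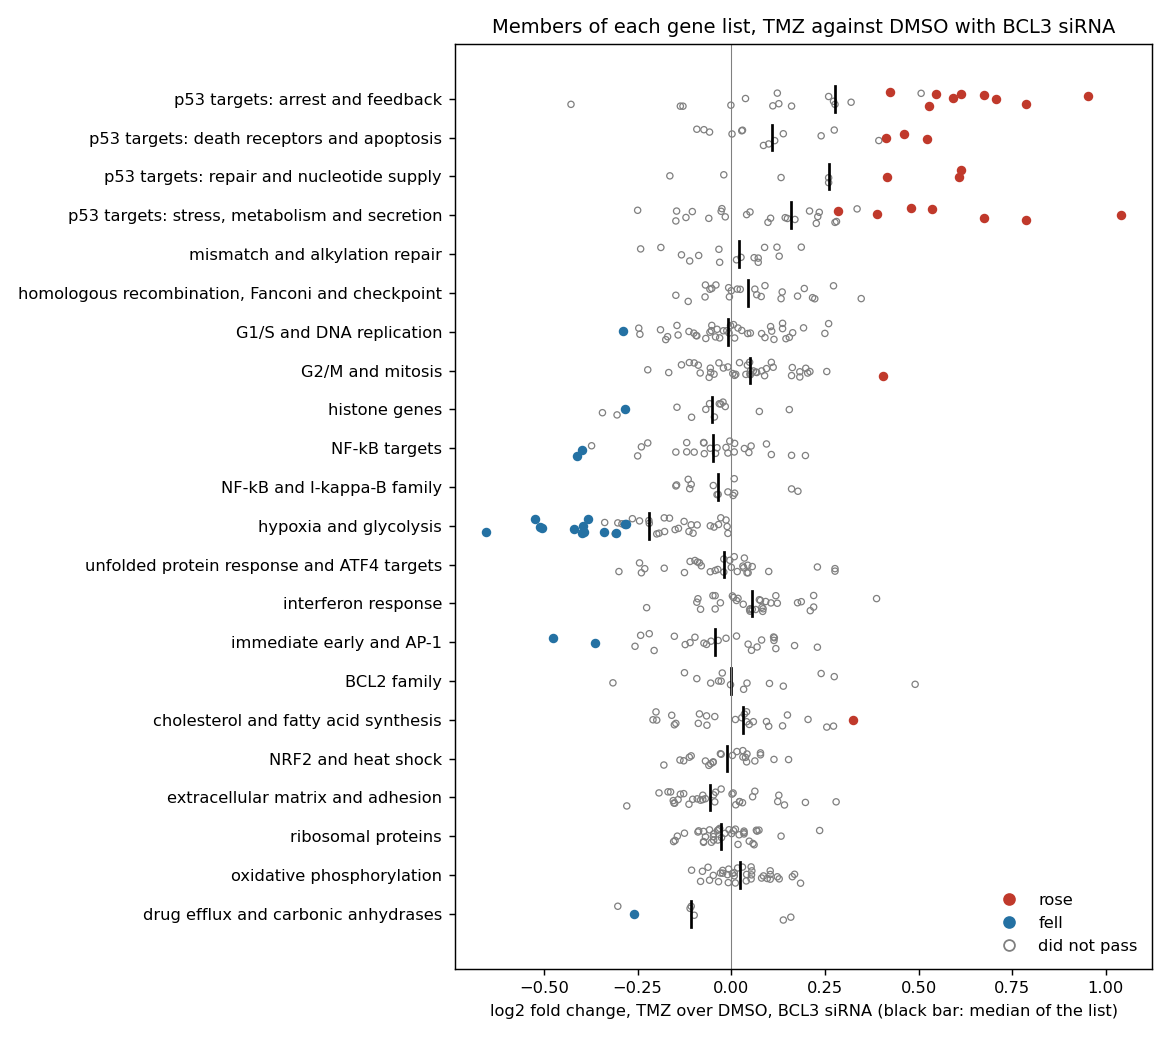
Each row is a gene list and each point a measured member, placed by its log2 fold change of TMZ over DMSO with BCL3 siRNA. Filled red points rose, filled blue points fell, open points did not pass, and a black bar marks the list's median. The 4 p53 lists hold most of the red points and the hypoxia and glycolysis list most of the blue ones. Under scaling by the median of all probes 10 of the 40 members of that list were positive, and under scaling by that of the detected probes 0 were.

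Outside the hypoxia and glycolysis list, MYC, F3, SPRY1 and HBEGF were among the genes that fell. MYC, the growth-promoting transcription factor, had levels of 9.13, 9.24 and 9.21 on TMZ arrays, against 9.62, 9.68 and 9.71 on DMSO arrays. F3, tissue factor, which starts clotting, had levels of 8.52, 8.60 and 8.53 on TMZ arrays, against 9.00, 9.08 and 9.03 on DMSO arrays. SPRY1, a feedback inhibitor of receptor tyrosine kinase signalling, had levels of 5.47, 5.43 and 5.06 on TMZ arrays, against 6.08, 5.92 and 6.03 on DMSO arrays. The groups were apart in all 3, and in SPRY1 TMZ replicate 3 lay below the other TMZ arrays. MYC fell by 0.47 ± 0.06 (adjusted p = 0.00112), F3 by 0.49 ± 0.07 (0.00417) and SPRY1 by 0.69 ± 0.11 (0.00913), the largest fall of all. Second probes gave -0.23 for MYC and -0.16 for F3, neither past the threshold, and -0.53 for SPRY1 (0.0499). HBEGF, a ligand of the EGF receptor, fell by 0.36 ± 0.06 (0.0115) and did not pass without TMZ replicate 1 (0.0526). MYC and HBEGF were the members of the immediate early and AP-1 list that fell, out of 26 measured, or 7.69% against 0.459% of all genes, and 0 rose. With control siRNA 2 of the 26 fell and 0 rose, against 0.393% and 0.468% of all genes.

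Other large falls lay outside the lists. ABTB2, an ankyrin and BTB domain protein, had levels of 5.35, 5.38 and 5.39 on TMZ arrays, against 5.77, 5.93 and 6.00 on DMSO arrays, a fall of 0.53 ± 0.08 (adjusted p = 0.00502). CDCA7, a MYC target that acts with a chromatin remodeller, had levels of 7.98, 7.96 and 8.04 on TMZ arrays, against 8.41, 8.43 and 8.43 on DMSO arrays, a fall of 0.43 ± 0.06 (0.00267). CDCA7 varied little within either group, and DMSO replicate 1 was the lowest DMSO array in ABTB2. NIM1K, an AMPK-related kinase, fell by 0.63 (0.0146), APLN, the vascular peptide apelin, by 0.47 (0.0245), PANX1, a membrane channel, by 0.44 (0.0137) and IPO4, an importin, by 0.43 (0.0146). NIM1K did not pass without DMSO replicate 1 or 2 (up to 0.0689), APLN without replicate 1 or 3 of either group (up to 0.0996), PANX1 without TMZ replicate 1 or DMSO replicate 3 (up to 0.0551), and IPO4 without TMZ replicate 1 or 2 or DMSO replicate 1 (up to 0.0689). CYTOR, a long non-coding RNA, fell by 0.44 (0.0412), but a second probe gave 0.34 and the call did not pass in 10 of 12 fits that left out 1 array (up to 0.14). PPP1R26, a subunit of protein phosphatase 1, fell by 0.42 (0.036) on a dim probe and did not pass in 8 such fits (up to 0.132).

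Outside the lists the largest rises were those of STOM, DGKA, SUGCT and AARS2. STOM, the membrane protein stomatin, had levels of 9.09, 8.92 and 9.12 on TMZ arrays, against 8.16, 8.48 and 8.43 on DMSO arrays. AARS2, the mitochondrial alanyl-tRNA synthetase, had levels of 8.41, 8.34 and 8.33 on TMZ arrays, against 7.78, 7.75 and 7.69 on DMSO arrays. AKR1B10, an aldo-keto reductase, had levels of 7.92, 7.94 and 7.95 on TMZ arrays, against 7.40, 7.42 and 7.31 on DMSO arrays. The groups were well apart in all 3, and DMSO replicate 1 was the lowest STOM array. STOM rose by 0.69 ± 0.09 (adjusted p = 0.00193), AARS2 by 0.62 ± 0.07 (0.00065) and AKR1B10 by 0.56 ± 0.06 (0.000701). DGKA, a diacylglycerol kinase, rose by 0.67 (0.000832) on its brightest probe, while another probe gave 0.10 (0.617). SUGCT, a mitochondrial CoA transferase, rose by 0.64 (0.00075) and CABYR, a calcium-binding protein known from sperm, by 0.58 (0.00579). MICOS10, a subunit of the complex that shapes mitochondrial cristae, rose by 0.60 (0.0412) on its brightest probe, while another probe gave 0.15 (0.582). The brightest probe was detected on 3 TMZ arrays and 1 DMSO array. Its call did not pass in 10 of 12 fits that left out 1 array (up to 0.146).

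In the lists of replication, mitosis, histones and repair 3 genes passed, MCM6, NEK2 and H2AJ, against 0.599% risen and 0.459% fallen over all genes. In the G1/S and DNA replication list 0 of 42 rose and 1 fell: MCM6, a helicase subunit, by 0.29 (adjusted p = 0.034). In the G2/M and mitosis list 1 of 41 rose and 0 fell: NEK2, a centrosome kinase, by 0.41 (0.0289). MCM6 did not pass in 7 of 12 fits that left out 1 array (up to 0.114), and NEK2 in 4, those without TMZ replicate 1 or 3 or DMSO replicate 1 or 2 (up to 0.0982); a second NEK2 probe gave -0.14. In the histone list 1 of 14 fell, H2AJ by 0.28 (0.0459), and did not pass in 10 such fits (up to 0.155). CCND1, cyclin D1, differed by -0.16 (0.209). In the list of mismatch and alkylation repair 0 of 16 passed in either direction. MSH6, a mismatch sensor, had levels of 9.75, 9.59 and 9.72 on TMZ arrays, against 9.80, 9.77 and 9.88 on DMSO arrays, a difference of -0.13 ± 0.07 (0.414). Its groups lay close together and did not overlap. UNG and ALKBH2, which remove uracil and alkyl groups from DNA, differed by -0.24 and -0.19. MGMT removes the methyl group from the mispairing form of methylated guanine. It was detected by its 1 probe on 0 of 12 arrays and was not tested. In the homologous recombination, Fanconi and checkpoint list 0 of 24 passed, with the lowest adjusted p for RAD51C (0.0676, difference 0.22) and FANCI (0.0836, difference 0.35).

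In the list of NF-kB targets 2 of 28 fell, 7.14% against 0.459% of all genes, and 0 rose. With control siRNA 4 of the 28 fell, against 0.393% of all genes. TNIP1, an inhibitor of NF-kB signalling, had levels of 8.29, 8.26 and 8.16 on TMZ arrays, against 8.61, 8.72 and 8.58 on DMSO arrays, a fall of 0.40 ± 0.06 (adjusted p = 0.00887). CXCL8, the chemokine interleukin-8, had levels of 9.61, 9.95 and 9.83 on TMZ arrays, against 10.19, 10.21 and 10.22 on DMSO arrays, a fall of 0.41 ± 0.08 (0.0372). TMZ replicate 1 was the lowest CXCL8 array, and no array overlapped between the groups in either gene. CXCL8 did not pass in 8 of 12 fits that left out 1 array (up to 0.106), and its second probe fell by 0.80 (0.0123). Of 14 genes coding for NF-kB or I-kappa-B proteins, the family BCL3 binds and belongs to, 0 passed, with NFKB1 at -0.15 (0.306).

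Most remaining lists had 0 genes past the threshold in either direction, against 0.599% risen and 0.459% fallen over all genes. These were the unfolded protein response and ATF4 targets (31 measured, lowest adjusted p 0.0506 for SLC7A5, difference -0.24), interferon response (33, with TAP1 at 0.19 and HERC5 at 0.22), BCL2 family (15), NRF2 and heat shock (24), extracellular matrix and adhesion (34), ribosomal proteins (38) and oxidative phosphorylation (36). In the BCL2 family BAK1, a pore-forming death protein, differed by 0.49 (0.0737) and BCL2L11 (BIM) by -0.32 (0.0791). In the cholesterol and fatty acid synthesis list 1 of 26 rose, the desaturase FADS1, by 0.33 (0.0202), and did not pass in 5 of 12 fits that left out 1 array (up to 0.0849): those without any of the 3 TMZ replicates or DMSO replicate 1 or 2. In the list of drug efflux pumps and carbonic anhydrases 1 of 7 fell, the pump ABCC4, by 0.26 (0.0322); a second probe gave -0.03 and the call did not pass in 7 such fits (up to 0.0919). CA2, a carbonic anhydrase, had levels of 6.62, 6.67 and 6.68 on TMZ arrays, against 6.55, 6.53 and 6.41 on DMSO arrays, a difference of 0.16 ± 0.09 (0.412). Its arrays did not overlap but the difference did not pass. A second CA2 probe gave 0.32 (0.0519), just short of the threshold.

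The same drug was tested on the 6 arrays with control siRNA. The group means of the 2 comparisons share no array, but all 12 arrays set the common spread, so the 2 sets of calls are not independent. Of the 113 calls with BCL3 siRNA, 28 remained when only the arrays compared were fitted and 69 without control siRNA TMZ replicate 2. With control siRNA 50 genes rose and 42 fell, 0.861% of all genes. With scaling by the median of all probes these counts were 16 and 86, a lean opposite to that with BCL3 siRNA. With that of the detected probes they were 49 and 44. Without 1 array they were as low as 22 and 14: both moved by over 1.5 times without control siRNA replicate 1 or 2 of either treatment, and falls also without control siRNA DMSO replicate 3 (19). Of the 113 genes that passed with BCL3 siRNA, 52 also passed in the same direction with control siRNA, 33 rises and 19 falls. They were 46% of the 113 genes and 56.5% of the 92 genes called with control siRNA, and 0 genes passed in opposite directions. Of the 113 genes, 104 had the same sign with control siRNA, against 62.8% of all genes. Across the 10686 genes the log2 fold changes with the BCL3 siRNA and with the control siRNA had a Pearson r of 0.397 and a Spearman rho of 0.36, given as a description since genes are not independent replicates.

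**Figure D4:**
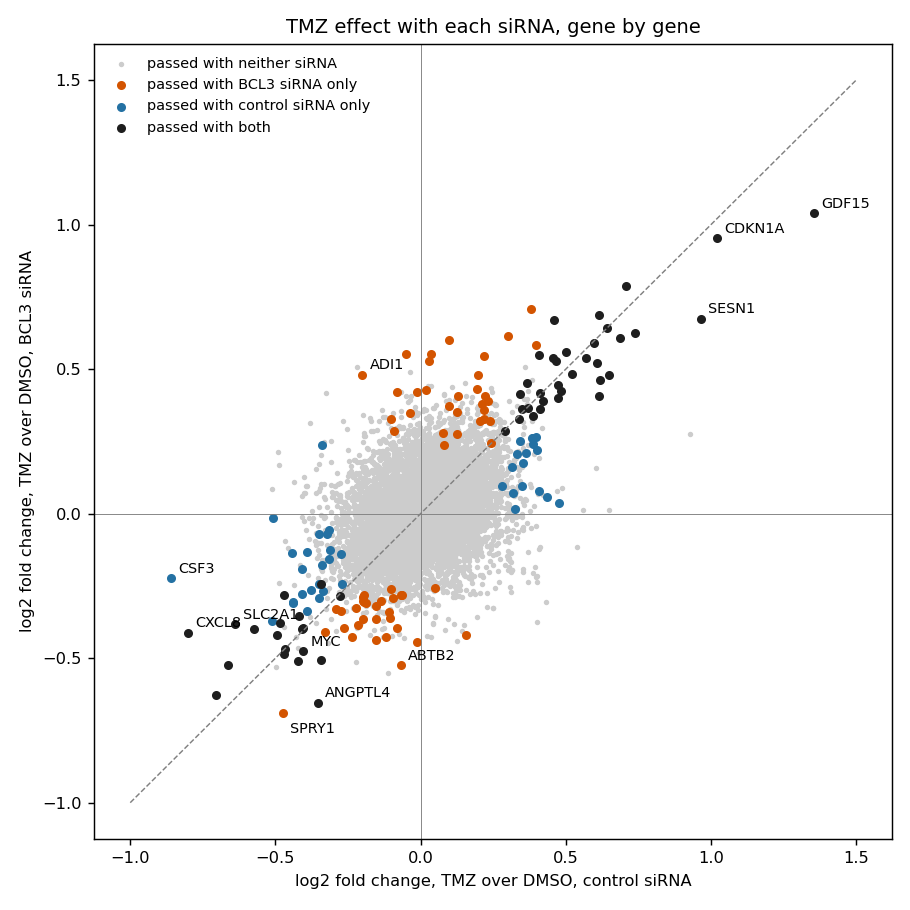
Each point is a gene. The vertical axis gives the log2 fold change of TMZ over DMSO with BCL3 siRNA and the horizontal axis that with control siRNA, the dashed line marks equal values, and colours mark where a gene passed the threshold. Genes that passed with both (black) lie at the upper right, led by GDF15 and CDKN1A, and at the lower left, and ADI1 lies at the upper left. For 0 genes did the difference between the siRNAs pass the test, though 11 did under scaling by the median of all probes. Under scaling by that of the detected probes 0 did.

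The test of the difference itself gave 0 genes past the threshold (limma), with 718 genes, 6.72%, at an unadjusted p under 0.05. With scaling by the median of all probes 11 genes passed, all positive, against 0 with that of the detected probes. Without control siRNA DMSO replicate 3, 1 gene passed. An unadjusted p under 0.05 was held by 39 of the 113 genes and by 22 of the 92 genes called with control siRNA. Both sets were chosen on arrays that also enter the difference, so these shares do not test whether the effects differ. GDF15 averaged 7.15 with TMZ and 6.11 with DMSO under BCL3 siRNA, and 7.37 with TMZ and 6.02 with DMSO under control siRNA. CDKN1A averaged 12.38 and 11.43 with TMZ and DMSO under BCL3 siRNA, and 11.94 and 10.91 with TMZ and DMSO under control siRNA. The TMZ effect with BCL3 siRNA minus that with control siRNA was -0.31 for GDF15 (unadjusted p = 0.00439, adjusted p = 0.579) and -0.07 for CDKN1A (adjusted p = 0.899). CDKN1A thus stood higher with BCL3 siRNA under either treatment, with TMZ effects of 0.95 and 1.02. SESN1 averaged 7.66 and 6.99 with TMZ and DMSO under BCL3 siRNA, and 6.71 and 5.75 with TMZ and DMSO under control siRNA, a difference of effects of -0.29 (adjusted p = 0.656). MDM2 passed with neither siRNA, with differences of 0.51 (adjusted p = 0.0631) with BCL3 siRNA and 0.36 (0.18) with control siRNA. With either siRNA its TMZ arrays all lay above its DMSO arrays.

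In the p53 lists the counts of rises with BCL3 siRNA and control siRNA were 9 and 8 of 23 for arrest and feedback, 3 and 3 of 16 for death, 3 and 2 of 8 for repair, and 7 and 6 of 30 for stress and metabolism. Over all genes 0.599% rose with BCL3 siRNA and 0.468% with control siRNA. In the hypoxia and glycolysis list 13 of 40 fell with BCL3 siRNA and 12 with control siRNA, against 0.459% and 0.393% of all genes. The list medians were -0.22 and -0.16. SLC2A1 averaged 9.71 and 10.09 with TMZ and DMSO under BCL3 siRNA, and 8.38 and 9.02 with TMZ and DMSO under control siRNA. Its fall was 0.26 smaller with BCL3 siRNA (unadjusted p = 0.00916, adjusted p = 0.65). ANGPTL4 fell by 0.65 with BCL3 siRNA and by 0.35 with control siRNA, a difference of -0.30 (adjusted p = 0.619). CXCL8 fell by 0.41 with BCL3 siRNA and by 0.80 with control siRNA, a difference of 0.39 (adjusted p = 0.619). None of these differences passed the test.

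**Figure D5:**
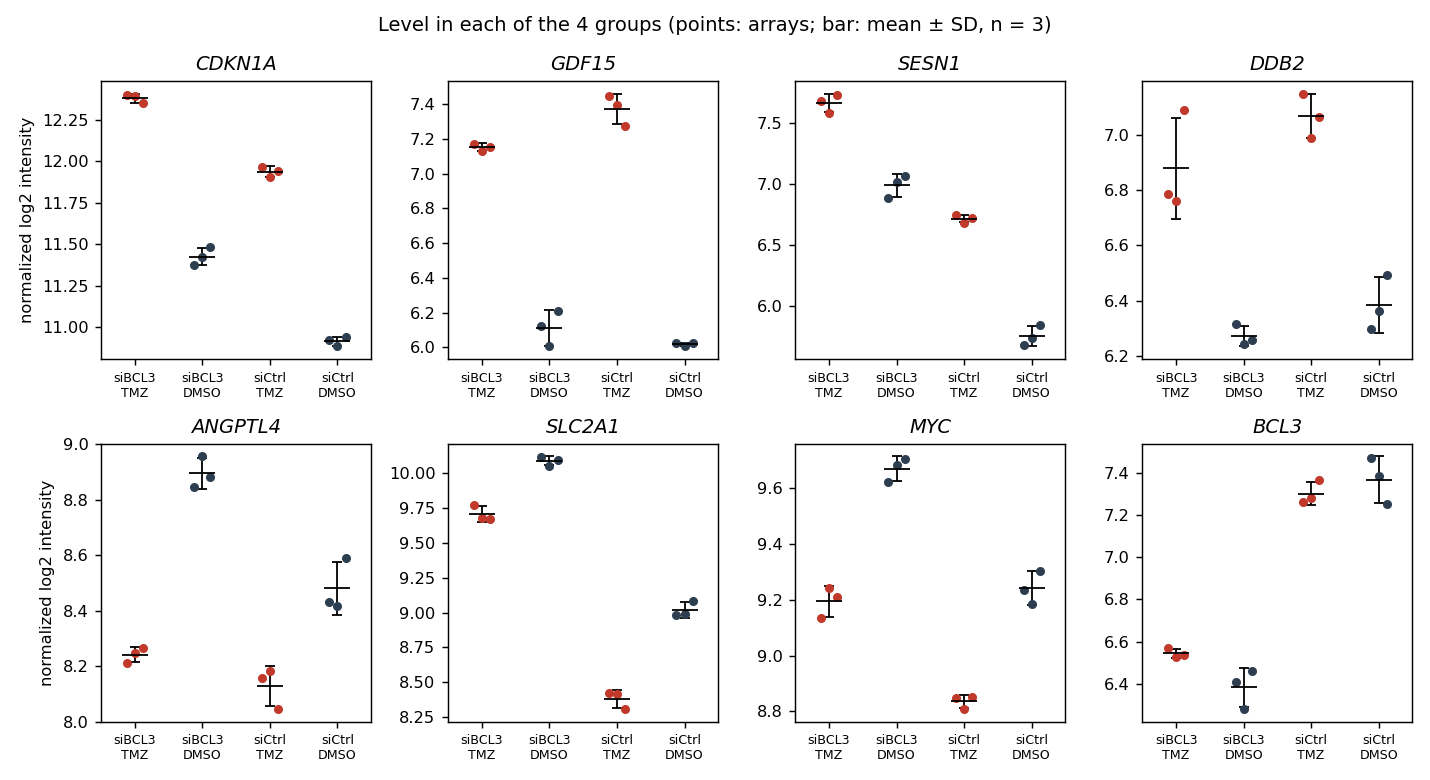
Normalised log2 intensity of 8 genes in the 4 groups, with 3 arrays each as points and the mean ± SD as a bar. The vertical axes differ between panels and do not start at 0. In CDKN1A, GDF15, SESN1 and DDB2 the TMZ arrays (red) lie above the DMSO arrays (dark blue) with either siRNA, and in ANGPTL4, SLC2A1 and MYC below them. BCL3 is lower with BCL3 siRNA under both treatments.

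The gene with the lowest p in the test of the difference was ADI1, an enzyme of methionine salvage. It had levels of 5.48, 5.45 and 5.49 with TMZ and BCL3 siRNA, against 5.03, 5.04 and 4.91 with DMSO and BCL3 siRNA, a rise of 0.48 ± 0.07 (adjusted p = 0.00424). All TMZ arrays were higher. With control siRNA it averaged 4.76 with TMZ and 4.96 with DMSO, a difference of -0.20 (adjusted p = 0.18). The difference of effects was 0.68 (unadjusted p = 7.26e-06), with an adjusted p of 0.0775, which missed the threshold. PTGES3, a co-chaperone of HSP90, differed by 0.24 with BCL3 siRNA (adjusted p = 0.102) and fell by 0.34 with control siRNA, with an adjusted p of 0.145 for the difference. The other 8 of the 10 genes with the lowest p, among them ZNF585A, TMPRSS12, SSX3 and TRAF5, had adjusted p of 0.347 or more. Besides ADI1, 8 of the 113 genes had opposite signs with the other siRNA: C18orf32, CNTROB, FAM200B, INO80D, LATS2, PPP1R26, TMEM106A and ZNF155.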

How the data were processed

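Total RNA of 12 U87 samples had been amplified to biotin-labelled cRNA and hybridised to Illumina bead arrays, per the labels' protocols. The deposited probe intensities used here are on a linear scale and had not been normalised by the authors, judged from the values. Detection p-values stand beside them per the file headers, which do not name their samples, so each column was paired with the intensity column it fell with most strongly (correlation -0.9875 to -0.9791). How arrays were scanned is not given in the sources used here. Precision is limited by the number of arrays.

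The neqc function of limma 3.58.1 (R 4.3.3) was applied to the intensities (negative controls inferred from detection p-values, offset 16, quantile normalisation, log2). Of 47320 probes 30112 had 1 gene symbol, 8 several and 17200 none, from the platform annotation; 30073 were found in the RefSeq gene table by Entrez identifier, with 0 symbols changed. Detected probes were kept, 18105 in all and 14270 of them named, and the brightest probe stood for its gene. Limma's lmFit and eBayes fitted a mean per group over the 12 arrays (8 residual degrees of freedom). Tests are 2-sided, with Benjamini-Hochberg adjustment over 10686 genes and a threshold of 0.05; errors of differences are limma standard errors. The script was tested on simulated data.

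The members, the 26 gene lists and the fixed genes were chosen with earlier results of these data known. The rule for named genes took 10 fixed genes, 1 of which is not reported here, the 15 largest rises and falls among called genes without overlap (uncharacterised model names left out), per list up to 4 called members or the 2 with the lowest p where none was called, and the 10 genes with the lowest p in the test of the difference. Further list members and genes in no list were named after their values were seen. Alternatives were other background corrections, offsets, scalings, filters, probe summaries and model settings, the authors' normalised intensity table, a replicate block and each array left out in turn. Median scaling took the median of all 47320 probes unless said otherwise. Median scaling over the kept probes was added after the data were seen. Deviations of arrays with the same replicate number correlated at -0.009, -0.06 and 0.186, so the numbers were not taken to pair the samples.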

Additional observations from a re-analysis of the deposited data

Results flagged for a closer look

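Detected probes without a single gene symbol were left out of the comparison of TMZ with DMSO. When all 18105 detected probes were fitted together, 11 of the 3835 such probes passed the threshold with BCL3 siRNA, 6 higher and 5 lower under TMZ, or 0.287%, against 0.526% of the named probes. Their share was thus below that of the named probes, and they are listed because no comparison above used such probes. The largest was ILMN_1770085, with a mean level of 6.48 on TMZ arrays and 4.99 on DMSO arrays, a difference of 1.49 ± 0.11 (limma SE, adjusted p = 5.91e-05), against 1.04 for GDF15, the largest rise among the genes tested. ILMN_3253126 differed by 1.03 ± 0.13 (adjusted p = 0.00405). The largest falls were ILMN_2294976, by 0.66 ± 0.11 (0.0225), and ILMN_1709026, by 0.65 ± 0.10 (0.0134). Their genes are not named in the annotation used here.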

How the results depend on the processing

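With BCL3 siRNA, 19 of the 113 calls held under all 26 alternatives that measured them, 18 rises and 1 fall, ANGPTL4. In all 12 fits that left out 1 array, 40 held, 26 rises and 14 falls. No named gene that passed changed sign under these alternatives, while MSH6, NFKB1 and TKT, which did not pass, turned from below 0 to just above it with median scaling. Counts of rises and falls, 64 and 49, became 120 and 109 with an offset of 50, 151 and 138 without background correction, 143 and 133 with trend and robust moderation, and 20 and 9 with only the arrays compared, a fit with fewer residual degrees of freedom. Falls became 3 with median scaling, 30 with the replicate block and 29 with log2 mean raw intensity as a covariate. The replicate block moved no other count of this comparison by over 1.5 times except hypoxia and glycolysis falls (8). Leaving out 1 array gave 33 to 57 rises and 20 to 47 falls. Median scaling over the kept probes gave 46 and 46, with 17 p53 list rises and 13 hypoxia and glycolysis falls. Members of the p53 lists that rose, 19, became 9 with only the arrays compared and ran from 14 to 19 without 1 array. Hypoxia and glycolysis falls, 13, became 20 with an offset of 50, 21 without background correction, 1 with median scaling, 4 with only the arrays compared, 21 with trend and robust moderation and 8 with the intensity covariate, and ran from 7 to 12 without 1 array.

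With control siRNA, rises and falls, 50 and 42, became 163 and 127 with an offset of 50, 234 and 184 without background correction, 16 and 86 with median scaling, 31 and 25 with only the arrays compared, 211 and 159 with trend and robust moderation, 139 and 104 with array weights and 16 and 12 with the intensity covariate, and falls 73 with detection on all 12 arrays. Leaving out 1 array gave 22 to 59 rises and 14 to 45 falls. The difference between siRNAs, 0 genes, became 1 with an offset of 50, without background correction, with trend and robust moderation and without control siRNA DMSO replicate 3 (range 0 to 1), and 11 with median scaling, all positive. The cause of these moves in the counts was not tested. Dim probes near background limit what was detectable, and the smallest difference that passed was 0.24 (HEBP1).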

Other observations

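Other genes that passed the test with BCL3 siRNA belonged to no list and are named after their values were seen. Among rises, ACTA2, smooth muscle actin, had levels of 10.65, 10.74 and 10.66 on TMZ arrays, against 10.17, 10.17 and 10.25 on DMSO arrays, a rise of 0.48 ± 0.05 (adjusted p = 0.000832), and rose by 0.52 with control siRNA. CYP26B1, which breaks down retinoic acid, rose by 0.41 (0.00579), FCGRT, the neonatal Fc receptor, by 0.54 (0.00432), GCNT3, a mucin glycosyltransferase, by 0.48 (0.00432), and BAMBI, a decoy receptor of the TGF-beta family, by 0.54 (0.00432). All 5 passed in each of the 12 fits that left out 1 array. TERF1, a telomere-binding protein, rose by 0.34 (0.0414) and passed in 1 of the 12. HS2ST1, STYK1, ZNF155 and LATS2 rose on probes that were not detected on any DMSO array with BCL3 siRNA. In that order they passed in 8, 6, 12 and 1 of the 12 fits that left out 1 array. Measured against the lowest detected signal, they were at least 1.21-fold, 1.19-fold, 1.12-fold and 1.06-fold higher with TMZ. Detection on 3 of the 12 arrays was enough to be tested, so such probes could enter through TMZ arrays where they were high. The part this filter plays in their calls was not tested.

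Among falls, HILPDA, a lipid droplet protein known to be induced by low oxygen, had levels of 7.93, 7.82 and 7.70 on TMZ arrays, against 8.28, 8.20 and 8.20 on DMSO arrays, a fall of 0.41 ± 0.08 (adjusted p = 0.0263) that passed in 7 of the 12 fits that left out 1 array. SLC1A3, a glutamate transporter of astrocytes, fell by 0.32 (0.0485) and passed in 1 of them, and SLC6A8, the creatine transporter, fell by 0.29 (0.025) and passed in 7. RRS1, a ribosome assembly factor, fell by 0.28 (0.0414) and passed in 0, and GLRX, a glutaredoxin, fell by 0.28 (0.0373) and passed in 2. TLCD3A fell by 0.38 (0.00709) and passed in all 12.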
